A study of Homo sapiens with 51 samples.

Results

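The comparison described here set 2 DATG libraries (replicates a and b) against 2 WT libraries (a and b) at day 4 of neural induction. These were 4 of the 15 libraries under the treatment labelled SMADi and of 51 libraries in the series. All cells were of the established human embryonic stem cell line H1, in derivatives labelled DATG (ΔATG in the design), KO and WT. The labels name neither the edited gene nor the number of clones behind a line, so the edit could not be checked, and a difference between lines cannot be told apart from one between clones. All groups had been plated on day 0 as single cells with a ROCK inhibitor and kept in a commercial neural induction kit that the labels describe as yielding neuroectoderm. The single KO library at day 4 (b) served only as a check of direction. Other days entered as context: day 1 with 1 DATG, 2 KO and 2 WT libraries, day 5 with 1 DATG, 2 KO and 2 WT libraries, and undifferentiated cells at day 0 with 2 libraries of each line. The assay was ATAC-seq, in which a transposase cuts accessible DNA, so the values are read counts in short fixed-width regions (201 bp) of GRCh38 and measure accessibility, not expression.

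Dual inhibition of SMAD signalling blocks the Activin, Nodal and TGF-beta arm and the BMP arm of the pathway, and pluripotent cells deprived of both adopt a neural fate by default. On that path the pluripotency factors and the epithelial programme of stem cells are shut down, E-cadherin gives way to N-cadherin, and neural transcription factors such as SOX1 and PAX6 come on. Regulatory DNA opens and closes along the same path, promoters rich in CG dinucleotides tending to stay open while distal elements turn over.

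The promoters that carry the clearest changes are shown first, read from RefSeq on GRCh38.p14 as 250 bases before to 30 after the annotated gene start and written 5′ to 3′ on the strand of the gene. They were chosen after their values were seen. The first 2 belong to CLDN7, a tight junction claudin, and CRB3, an apical polarity protein of epithelia, and lost accessibility in DATG. Capitals mark CACCTG or its reverse complement CAGGTG, the E-box bound by repressors of the ZEB and SNAI families. NANOG, a pluripotency factor, also lost accessibility, and capitals mark ACAATGG, a SOX-type motif. HES5, a Notch target of neural progenitors, gained it, and capitals mark GTGGGAA or TTCCCAC, the motif of the Notch partner RBPJ. CHCHD2, which encodes a mitochondrial protein, was all but closed in DATG, and capitals mark CG.
CLDN7 chr17:7262449-7262728, minus strand: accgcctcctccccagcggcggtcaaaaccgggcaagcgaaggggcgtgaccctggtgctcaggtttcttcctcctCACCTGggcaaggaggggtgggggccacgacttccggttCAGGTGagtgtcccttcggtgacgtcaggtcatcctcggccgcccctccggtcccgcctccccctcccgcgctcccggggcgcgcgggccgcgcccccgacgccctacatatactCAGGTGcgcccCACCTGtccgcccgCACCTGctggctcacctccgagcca
CRB3 chr19:6464021-6464300, plus strand: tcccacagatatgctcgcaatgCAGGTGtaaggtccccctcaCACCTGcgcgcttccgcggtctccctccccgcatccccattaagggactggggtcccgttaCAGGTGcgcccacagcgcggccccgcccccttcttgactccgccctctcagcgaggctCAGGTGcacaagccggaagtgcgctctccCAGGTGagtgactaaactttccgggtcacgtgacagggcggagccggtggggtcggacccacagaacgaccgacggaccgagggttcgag
NANOG chr12:7789152-7789431, plus strand: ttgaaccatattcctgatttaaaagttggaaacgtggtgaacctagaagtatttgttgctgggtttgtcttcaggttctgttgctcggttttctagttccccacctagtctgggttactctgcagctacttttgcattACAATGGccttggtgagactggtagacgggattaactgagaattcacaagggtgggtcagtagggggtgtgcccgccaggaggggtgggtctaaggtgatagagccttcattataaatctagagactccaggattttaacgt
HES5 chr1:2530234-2530513, minus strand: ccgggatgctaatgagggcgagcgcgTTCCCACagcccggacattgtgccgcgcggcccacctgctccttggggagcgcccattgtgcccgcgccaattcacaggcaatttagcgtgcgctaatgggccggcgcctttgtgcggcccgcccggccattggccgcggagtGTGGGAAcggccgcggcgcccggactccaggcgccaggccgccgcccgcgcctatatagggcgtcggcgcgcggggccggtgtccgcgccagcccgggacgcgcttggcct
CHCHD2 chr7:56106447-56106726, minus strand: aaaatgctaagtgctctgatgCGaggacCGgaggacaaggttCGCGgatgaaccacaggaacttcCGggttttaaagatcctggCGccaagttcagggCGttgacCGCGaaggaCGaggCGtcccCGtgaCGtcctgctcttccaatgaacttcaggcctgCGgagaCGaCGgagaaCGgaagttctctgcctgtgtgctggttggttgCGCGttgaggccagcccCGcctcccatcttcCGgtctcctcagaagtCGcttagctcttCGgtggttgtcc

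The CLDN7 and CRB3 windows hold the E-box 5 times each, the HES5 window holds the RBPJ motif 2 times and the NANOG window the SOX motif once, at position -112 from the gene start. The HES5 window, which gained accessibility, also holds the E-box 1 time and the SOX motif 1 time, left in lower case. The CHCHD2 window has 23 CG dinucleotides in 280 bases. A match is a description of letters and not evidence of binding.

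Total counts at day 4 were 14782273 and 16585276 in DATG, 15082248 in KO and 15478386 and 15750197 in WT. The median absolute log2 difference between replicates over regions was 0.21 in DATG and 0.24 in WT, and both pairs differed by more than sampling noise (chi-square per degree of freedom 1.71 and 2.43). The labels leave unsaid whether replicates were separate cultures, and the p-values reflect variation among the libraries at hand, possibly technical. The library labelled KO day 1 replicate b stood nearer to DATG than to the other KO library at 3 regions. At the CHCHD2 promoter it had 0 counts, where DATG day 1 had 3 and KO day 1 replicate a had 54. Near PARK7 it had 1.38 CPM (counts scaled by library total and normalization factor), against 1.66 in DATG and 6.98 in KO replicate a, and in PRAF2 4.75, against 4.90 and 11.6. It was kept as labelled, so KO day 1 values and points that include it are in doubt, and 48274 regions were called at day 4 without it, against 49719 with it.

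At day 4, DATG chromatin differed from WT over a large part of the accessible genome. Of 162313 regions tested, 49719 (30.6%) passed edgeR's quasi-likelihood test at a Benjamini-Hochberg adjusted p under 0.05, with 21499 (13.2%) higher in DATG and 28220 (17.4%) lower. The losses were the larger changes, since 20558 regions fell by more than 2-fold and 9928 rose by more than 2-fold. DATG and WT libraries did not overlap in 49680 of the called regions, and in 66.7% of all regions tested. In all, 65869 regions had an unadjusted p under 0.05. The median log2 difference over all regions was 0.01. Scaling on regions at gene starts, chosen after seeing the data, shifted that median to -0.17 and the share of calls that were higher to 24.9%, against 43.2%. In bulk libraries, fewer cells of a type and less signal per cell cannot be told apart.

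Before induction the lines were far closer. At day 0, 207 of 100582 regions (0.206%) were called between DATG and WT in their own table, 41 higher and 166 lower. The DATG and WT day 0 libraries were shallower, however, at 5461753 to 7516259 counts. Of the tested SMADi regions 94959 overlapped a day 0 region, where 144 were lower and 36 higher in DATG. Regions lower at day 4 made up 14665 of these overlaps and 104 of the 144. Regions higher at day 4 made up 8793 of the overlaps and 12 of the 36. Day 0 was not tested against day 4. With loess offsets in place of scaling factors, 93 day 0 regions were called and 32.3% of them were higher, against 19.8%, and leaving out WT day 0 replicate a left 31.

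The day 4 regions were also nearly level 1 day into induction. Those lower in DATG at day 4 had a median log2 difference of -1.37 at day 4, beside -0.03 at day 1 and -1.24 at day 5. Those higher had 0.95 at day 4, beside 0.05 at day 1 and 0.68 at day 5. Days 1 and 5 used other libraries than day 4, and 95.0% of the lower set lay below WT at day 5, against 51.1% of all regions, while 90.8% of the higher set lay above, against 48.9% of all regions. In the KO day 4 library the medians were -1.42 and 0.95, but KO was compared with the same WT libraries, so these stand beside the DATG values and are not independent of them.

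The median levels behind these differences were as follows. That of the lower set stood at 1.61 and 1.57 CPM in DATG day 4, at 1.55 in KO day 4 and at 4.38 and 4.48 in WT day 4. At day 1 it had been 3.82 in DATG and 4.02 and 4.03 in WT, and at day 5 it was 1.25 in DATG and 3.24 and 3.11 in WT. For the higher set the median was 6.58 and 6.42 CPM in DATG day 4, 6.53 in KO day 4 and 3.07 and 3.11 in WT day 4. Day 1 gave 2.33 in DATG and 2.04 and 2.01 in WT, and day 5 gave 7.79 in DATG and 4.41 and 4.50 in WT. The sets were called by comparing the DATG and WT day 4 libraries, so the gap between these follows from the selection. The single KO day 4 library, outside that comparison, lay near the DATG levels in both sets.

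The change of the difference over time was tested directly. The DATG minus WT difference at day 4 departed from that at day 1 in 19263 regions (11.9%), being more positive in 5660 (3.49%) and more negative in 13603 (8.38%). Among the lower set 12258 regions passed that test in the same direction, and among the higher set 4052. The 2 tests share the day 4 libraries. DESeq2 called 8620 regions, leaving out DATG day 4 replicate b left 11447, and gene-start scaling made 12.0% of the calls positive, against 29.4%. Between day 4 and day 5 the difference changed in 699 regions (0.431%), 549 upward (0.338%) and 150 downward (0.0924%) at day 4 relative to day 5. That count ranged from 84 without DATG day 4 replicate a to 4612 without WT day 5 replicate b. The positive share ranged from 56.5% without WT day 5 replicate b to 93.2% under gene-start scaling, and was 64.1% under loess offsets. DATG had 1 library on day 1 and on day 5, which was assumed to vary like the other groups. WT day 5 replicate a was shallow, with 7086918 counts against 15026768 in replicate b and 23252871 in DATG day 5. The median absolute log2 difference between the WT day 5 replicates was 0.37.

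The WT course itself gives a scale for these changes. Between day 1 and day 5, 66416 regions (40.9%) were called in WT, 38724 opening (23.9%) and 27692 closing (17.1%), and none of those 4 WT libraries enters the day 4 comparison. Regions that opened more than 2-fold in WT numbered 29161. Of these, 35.1% were higher in DATG at day 4 and 13.5% lower, with a median log2 difference of 0.37. Among the 17901 regions that closed more than 2-fold in WT, 1.67% were higher in DATG and 43.4% lower, with a median of -0.84. Among the 115251 other regions 9.51% were higher and 14.3% lower. Loess offsets gave 28.5% lower among closing regions.

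**Figure D1:**
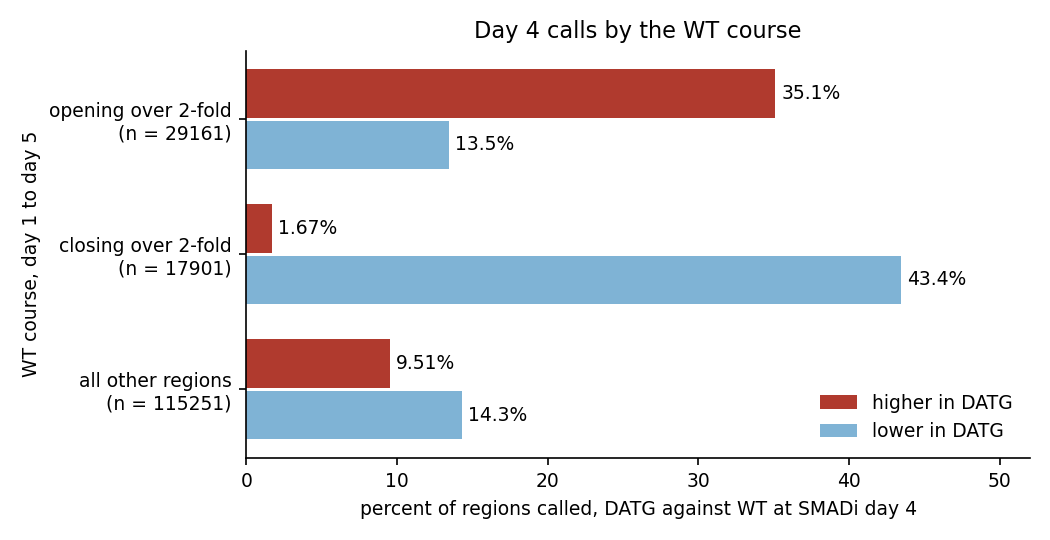
Percent of regions called higher (dark bars) or lower (light bars) in DATG against WT at SMADi day 4, for regions that opened or closed over 2-fold in WT between day 1 and day 5 and for all others. For opening regions 35.1% were called higher and 13.5% lower in DATG, and for closing regions 1.67% higher and 43.4% lower.

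On a scale where the WT day 1 mean is 0 and the WT day 5 mean is 1 for each region, the 2 DATG libraries at day 4 lay at a median of 1.03 and 1.00 over opening regions. The KO library lay at 1.05, and the WT day 4 libraries at 0.81 and 0.86. Over closing regions DATG lay at 1.08 and 1.09, KO at 1.14 and WT at 0.61 and 0.63. By day 4 the mutant libraries lay close to or beyond the WT day 5 level in these regions, whereas WT lay short of it. At day 1 the DATG library lay at 0.04 over opening and 0.05 over closing regions, and at day 5 at 1.06 and 1.24. The regions were chosen with the WT day 1 and day 5 libraries, so the 0 and 1 of the scale are fixed by construction and no test is given.

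**Figure D2:**
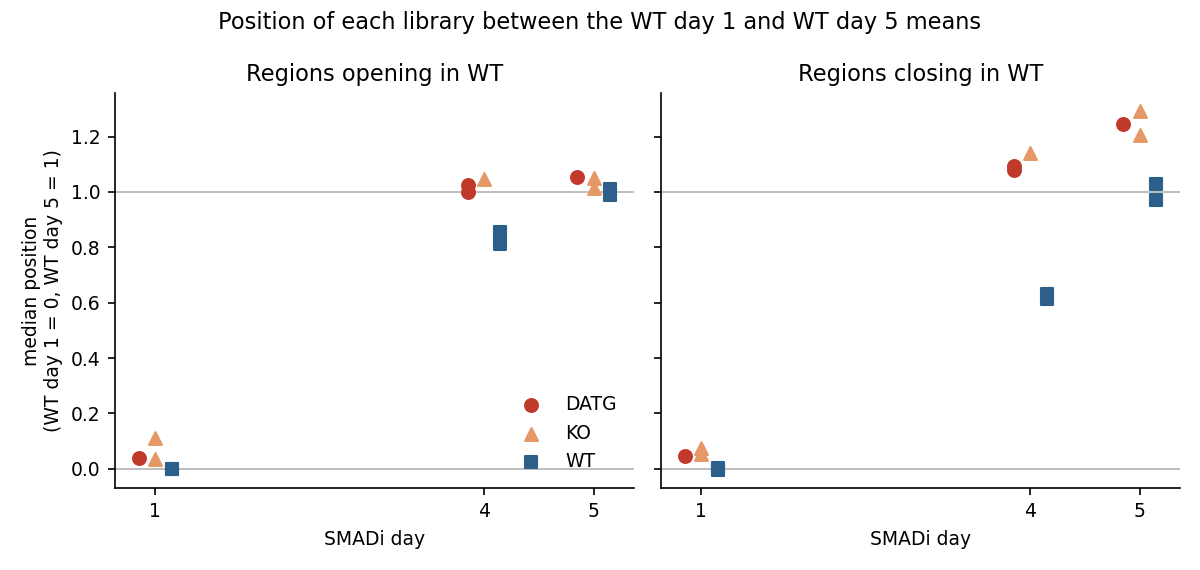
Median position of each SMADi library (1 point a library, by genotype and day) between the WT day 1 mean (0) and the WT day 5 mean (1), over regions that opened (left) or closed (right) more than 2-fold in WT. At day 4 DATG lay at 1.00 to 1.03 and 1.08 to 1.09, above WT at 0.81 to 0.86 and 0.61 to 0.63.

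Not every change followed the WT course. Of the 28220 lower regions, 10206 (36.2%) closed in WT between day 1 and day 5, 13146 (46.6%) were not called in the WT course, and 4868 (17.3%) opened in WT. The last group had a median of 2.55 and 2.36 CPM in DATG day 4, 2.42 in KO day 4 and 6.07 and 6.23 in WT day 4. In WT it stood at 1.44 and 1.49 CPM on day 1 and at 5.29 and 5.03 on day 5, and the DATG day 5 library had 2.00. In 46.9% of these regions WT day 4 lay above both WT day 1 and WT day 5. The same WT day 4 libraries entered the call as lower, which favours high WT day 4 values. That share was 36.85% in lower regions not called in the WT course and 4.37% in those closing. In higher regions that opened it was 0.86%. In the lower regions that opened, the DATG day 1 median was 1.41 CPM. The DATG medians there on days 4 and 5 thus lay above that of day 1 and below those of WT. Of the higher regions, 12148 (56.5%) opened in WT, 777 (3.61%) closed and 8574 (39.9%) were not called.

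Examples of that group, 6 in number, follow, the strongest in WT opening among 370 regions that opened and were lower by over 2-fold each way at or above the median level. They were chosen after their values were seen. The region near TRERF1, a zinc finger regulator, had 3.29 and 2.42 CPM in DATG day 4, 4.85 in KO and 7.64 and 7.41 in WT (log2 difference -1.40 ± 0.27, SE). Near HABP2, a hyaluronan-binding protease, DATG had 5.17 and 5.51, KO 5.86 and WT 12.7 and 16.1 CPM (-1.43 ± 0.23). Near EDARADD, an adaptor of ectodysplasin signalling, DATG had 4.50 and 3.45, KO 3.97 and WT 10.3 and 10.8 CPM (-1.41 ± 0.23). The others lay near PECAM1, TAAR9 and CADPS2, with log2 differences of -1.16, -1.06 and -1.40. All 6 had under 1 CPM in both WT day 1 libraries and over 9 CPM in both WT day 5 libraries.

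Gains and losses as whole sets lay in different places, but those over 2-fold lay alike. Losses as a set were more distal: 7.36% of lower regions lay within 1 kb of a gene start, against 24.1% of all tested and 23.7% of higher regions. The median distance to a gene start was 27430 bp for lower, 16000 bp for higher and 14330 bp for all regions. Gains split by size, with 38.5% of those under 2-fold at a gene start but 6.49% of those over 2-fold. For losses these shares were 12.35% and 5.49%. Over 10 kb from a gene start lay 73.75% of gains and 74.41% of losses over 2-fold, against 55.94% of all tested regions. Gene-start regions as a class had a median log2 difference of 0.18, and those over 10 kb away -0.12. The share of all counts that fell at gene starts was 38.4% and 39.9% in DATG day 4, 39.1% in KO and 36.5% and 34.5% in WT, so the whole library leaned the same way. The part of that lean in the small gains was not tested. Under gene-start scaling, which removes it, 11968 regions were called higher.

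The strongest single gains were regions nearly shut in WT at day 4. All were named by a rule that took the largest changes at or above the median level, so their size is a description. The largest lay inside SORCS2, a sortilin-family receptor of neurons (chr4:7226535-7226735). It had 9.74 and 6.72 CPM in DATG day 4, 9.16 in KO and 0.31 and 0.44 in WT, a log2 difference of 4.42 ± 0.35 (SE, adjusted p = 6.66e-13 in edgeR's quasi-likelihood test). The region inside MEGF10, an engulfment receptor (chr5:127425172-127425372), had 6.85 and 6.05 CPM in DATG, 8.75 in KO and 0.19 and 0.44 in WT, a log2 difference of 4.33 ± 0.36. WT day 5 reached 2.21 and 1.46 CPM there and DATG day 5 reached 17.6.

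The remaining 6 were near COLGALT1, WSCD1, STARD5, SAMD12, SENP1 and SORL1, with log2 differences of 3.82 to 4.18. SORL1, a sorting receptor of the amyloid precursor, had 6.25 and 6.30 CPM in DATG, 9.36 in KO and 0.75 and 0.12 in WT. COLGALT1, a collagen galactosyltransferase, had 7.26 and 6.60 CPM in DATG, 8.82 in KO and 0.50 and 0.25 in WT, and WT day 5 reached 2.35 and 4.44. In all 8 regions WT day 5 lay above both WT day 4 libraries and below both DATG day 4 libraries, except at SENP1, where WT day 5 had 5.29 and 4.70 CPM and DATG day 4 had 6.11 and 4.78.

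Among the strongest losses, most regions were open in WT at day 4 and in DATG at day 1. The region near WWOX, an oxidoreductase gene at a fragile site (chr16:78072369-78072569), had 0.07 and 0.24 CPM in DATG day 4, 0.27 in KO and 12.4 and 13.9 in WT. Its log2 difference was -6.29 ± 0.41 (SE, adjusted p = 5.56e-15 in edgeR's quasi-likelihood test), and at day 1 DATG had 13.5 and WT 13.3 and 14.8 CPM. The region inside KAT8, a histone acetyltransferase (chr16:31130986-31131186), had 0.20 and 0.30 CPM in DATG, 0.07 in KO and 11.5 and 14.5 in WT, a log2 difference of -5.63 ± 0.34. Near GAL, which encodes the neuropeptide galanin, DATG had 0 and 0.30, KO 0.07 and WT 8.39 and 8.10 CPM. MRGPRX2, ZNF117 and ZNF100 had log2 differences of -5.74, -5.72 and -5.64. In these 6 the DATG minus WT difference at day 1 lay between -0.21 and 0.41 on the log2 scale, and the WT change between day 1 and day 5 lay between -2.96 and -0.62.

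Other losses were older than day 4. C1QTNF4, a secreted C1q-like protein (chr11:47590270-47590470), had 0.20 and 0.18 CPM in DATG day 4, 0.47 in KO and 11.1 and 10.9 in WT, and at day 1 DATG already had 0.66, KO replicate a 1.49 and WT 9.73 and 9.23. The doubted library labelled KO replicate b had 0.83. The CHCHD2 promoter had 1 and 2 counts in DATG day 4, 46 in KO and 125 and 163 in WT, a log2 difference of -6.44 ± 1.58 (adjusted p = 0.0222 in edgeR's quasi-likelihood test). At day 0 it had 2 and 1 counts in DATG, 72 and 25 in KO and 109 and 63 in WT. The day 0 log2 difference, in its own fit, was -5.79 ± 0.45 (adjusted p = 1.07e-21 in edgeR's quasi-likelihood test). The day 4 call of this promoter was lost on leaving out any one of the 4 libraries. All SMADi groups have a shared spread estimate, and KO day 1 replicates a and b had 54 and 0 counts there. Regions near PARK7, an oxidative stress sensor, and in PRAF2, a membrane protein, were lower in DATG by 2.25 and 1.75 on the log2 scale and differed already at day 0 by -1.95 and -1.55. In KO day 4 these 2 had log2 differences of 0.53 and 0.52, so here the mutant lines went apart.

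**Figure D3:**
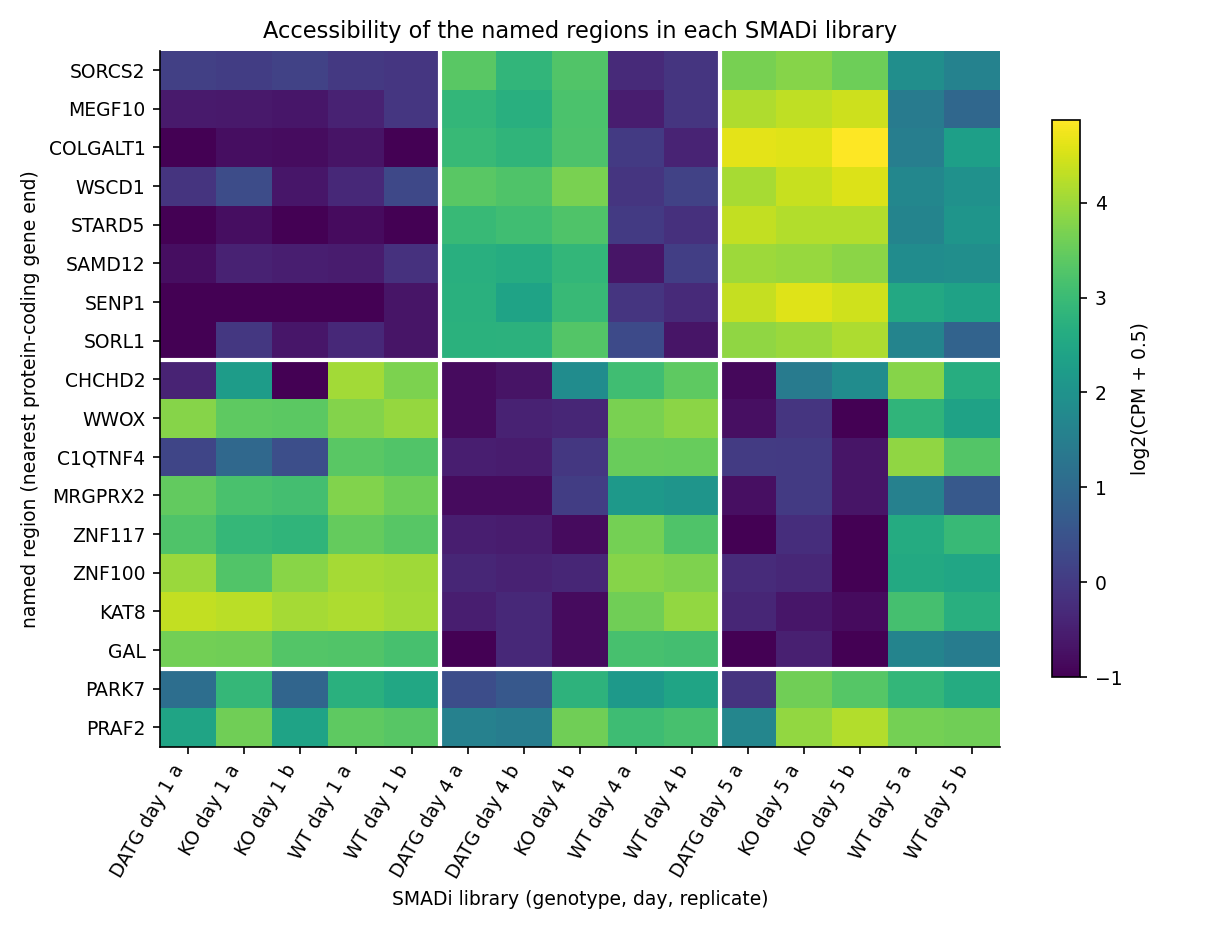
Accessibility, as log2(CPM + 0.5), of 18 named regions (rows, by nearest protein-coding gene end) in the 15 SMADi libraries (columns, by day with DATG, KO and WT in order). The first 8 rows are dark in WT day 4 and light in DATG and KO day 4. The next 8 show the reverse except at CHCHD2, where KO day 4 had 3.10 CPM. The last 2 are PARK7 and PRAF2, where KO sides with WT except in the doubted library labelled KO day 1 replicate b.

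Promoter regions gave the clearest link to known genes. CLDN7 had 1.01 and 0.61 CPM in DATG day 4, 0.34 in KO and 16.7 and 15.3 in WT, a log2 difference of -4.31 ± 0.25 (SE, adjusted p = 3.52e-16 in edgeR's quasi-likelihood test). CRB3 had 0.94 and 1.27 CPM in DATG, 0.88 in KO and 16.8 and 16.2 in WT, a log2 difference of -3.88 ± 0.26. Both epithelial promoters were level between lines at day 1, with 21.3 CPM in DATG and 19.3 and 20.5 in WT for CLDN7. At day 5 CLDN7 had 0.70 CPM in DATG and 6.76 and 6.69 in WT. The CRIPTO promoter, which belongs to a Nodal co-receptor, had 1.68 and 1.82 CPM in DATG, 2.56 in KO and 11.3 and 10.0 in WT, a log2 difference of -2.60 ± 0.25. NANOG had 2.02 and 2.60 CPM in DATG, 3.43 in KO and 8.77 and 5.73 in WT, a log2 difference of -1.64 ± 0.27.

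The 3 neural promoters described here, chosen after their values were seen, went the other way. HES5 had 20.2 and 21.8 CPM in DATG day 4, 20.6 in KO and 8.70 and 7.16 in WT, a log2 difference of 1.41 ± 0.17 (SE, adjusted p = 1.21e-08 in edgeR's quasi-likelihood test). A promoter of PAX6, the homeobox factor of early human neuroectoderm, had 13.6 and 12.7 CPM in DATG, 13.6 in KO and 3.82 and 3.86 in WT, a log2 difference of 1.78 ± 0.20. This PAX6 start lies inside the annotated gene, and the region (chr11:31812495-31812695) overlaps only the downstream edge of its window. For each gene, the region with the smallest day 4 p over any of its windows was taken. PRTG, protogenin, a receptor of early neural tissue, had 31.9 and 32.0 CPM in DATG, 33.1 in KO and 12.5 and 11.1 in WT, a log2 difference of 1.44 ± 0.16. In WT all 3 had more CPM in both day 5 than in both day 1 libraries, and the PAX6 promoter had 4.02 and 2.79 CPM in WT on day 1 and 9.41 and 10.0 on day 5.

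**Figure D4:**
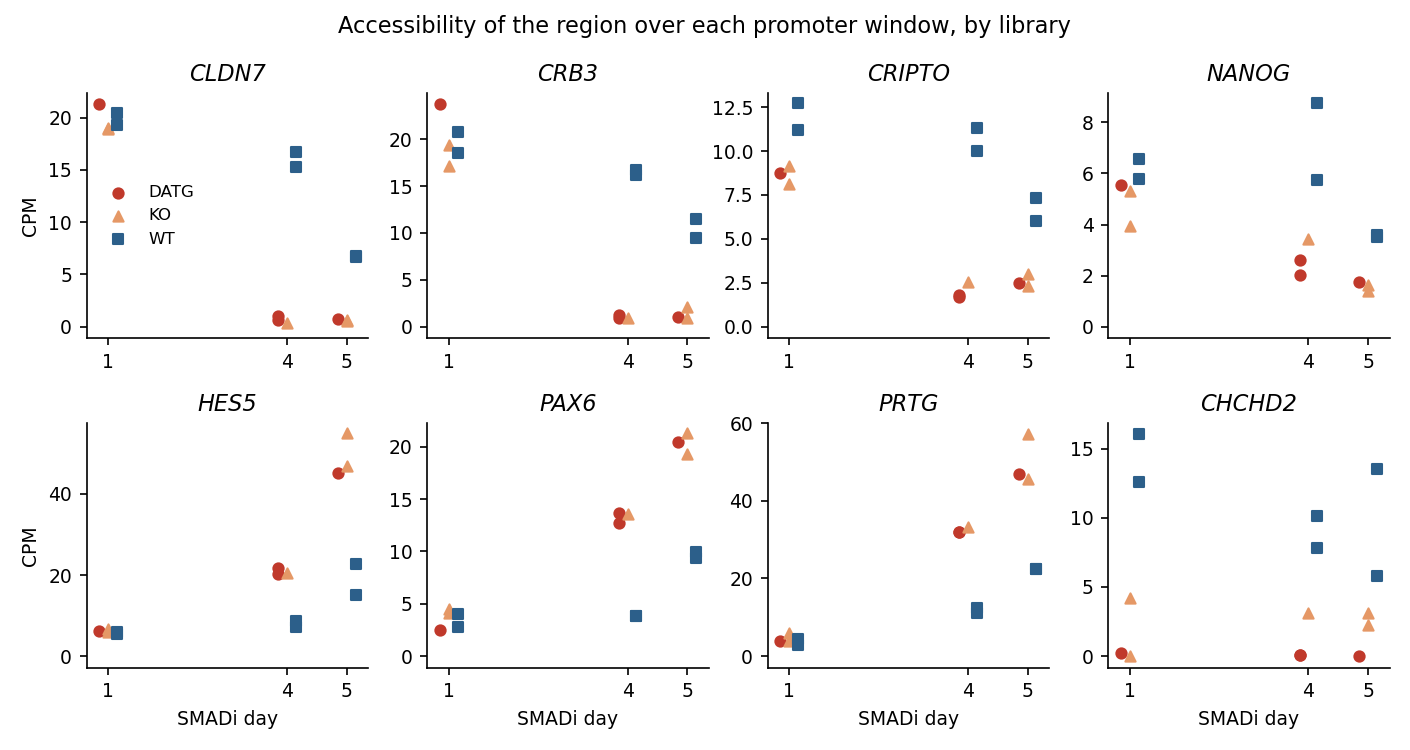
CPM of the region over each promoter window in each SMADi library (1 point a library), by day and genotype. At day 4 CLDN7, CRB3, CRIPTO, NANOG and CHCHD2 were lower in DATG than in WT, HES5, PAX6 and PRTG were higher, and KO lay with DATG except at CHCHD2, where it had 3.10 CPM.

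The letters of the promoters differed between the called sets. Promoter windows are taken here as 250 bases before to 50 after the gene start. A window counts as lower or higher by the call of the tested region over it, the one with the smallest day 4 p where several overlap. CACCTG on either strand stood in 42.2% of the 931 windows lower in DATG, in 11.9% of the 3065 higher windows, in 19.5% of the 14863 that were not called and in 20.6% of all 34943 windows. The lower windows also had a median of 12 CG dinucleotides and 59.0% G and C, the higher 30 and 69.3%, and those with a tested region as a whole 26 and 66.0%. The part of base composition in the motif shares was not tested. GTGGGAA stood in 7.30% of lower, 5.61% of higher, 5.79% of windows not called and 6.24% of all windows. ACAATGG stood in 3.22% of lower, 2.61% of higher, 1.78% of windows not called and 3.16% of all windows. No motif search was made in the distal regions, for which no genome sequence was used here.

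For a view by gene, counts were summed per gene over the regions lying within 50 kb of the gene end nearest to them. Of 31483 genes, 10801 (34.3%) were called between DATG and WT at day 4, 4958 higher (15.7%) and 5843 lower (18.6%), with a median log2 difference of 0.01. Gene-start scaling shifted the median of all genes to -0.15 and left 16.1% of calls higher, against 45.9%. Small gains are therefore read against that median in what follows, and gene lists are given by their counts and their median. A list median that turns negative under gene-start scaling can still lie above that of all genes.

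Pluripotency genes lost accessibility as a group. Of 32 measured, 19 were lower in DATG and 2 higher, DNMT3B and DNMT3L, with a median log2 difference of -0.30 that stayed negative under each scaling tried. GDF3, a TGF-beta family ligand of stem cells, had 0.60 and 1.21 CPM in DATG, 0.66 in KO and 4.97 and 6.23 in WT, a log2 difference of -2.60 ± 0.41 (SE, adjusted p = 1.11e-05 in edgeR's quasi-likelihood test). DPPA5, an RNA-binding stem cell marker, had 2.71 and 3.15 CPM in DATG, 1.55 in KO and 11.9 and 11.1 in WT (-1.97 ± 0.24). NANOG fell by 1.32 and POU5F1, which encodes OCT4, by 0.85 on the log2 scale. The list summed to 1739 and 1748 CPM in DATG, 1683 in KO and 2025 and 1976 in WT. Its median difference was -0.17 at day 1 and -0.06 at day 5.

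Epithelial genes also lost accessibility. Of 20 measured, 12 were lower and 2 higher, CLDN10 and GRHL1, with a median of -0.36 that stayed negative under each scaling tried. CDH1, which encodes E-cadherin, had 54.7 and 48.7 CPM in DATG, 49.6 in KO and 108 and 113 in WT over 16 linked regions, a log2 difference of -1.10 ± 0.08 (SE, adjusted p = 1.97e-12 in edgeR's quasi-likelihood test). CRB3 fell by 2.81, CLDN7 by 2.50 and GRHL2, a master regulator of epithelial genes, by 0.94 on the log2 scale. EPCAM fell by 0.83 and ESRP1, an epithelial splicing factor, by 0.92. The list summed to 757 and 765 CPM in DATG, 739 in KO and 1044 and 1030 in WT. Its median difference at day 1 was -0.01 and at day 5 -0.29.

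Of 18 mesenchymal genes measured, 6 were higher and 2 lower, with a median of 0.07, beside 0.01 for all genes. Gene-start scaling gave 4 higher and 4 lower and a median of -0.08, beside -0.15 for all genes. VIM, the intermediate filament vimentin, had 46.7 and 44.5 CPM in DATG, 44.3 in KO and 31.1 and 30.8 in WT, a log2 difference of 0.56 ± 0.10 (adjusted p = 0.0001 in edgeR's quasi-likelihood test). COL5A1, a fibrillar collagen, rose by 0.54. DCN and POSTN had no linked region, and CDH2, which encodes N-cadherin, rose by 0.34 but lost its call under gene-start scaling and without DATG replicate b or WT replicate b.

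Of 22 early neural genes, SOX and POU factors among them, 11 were higher and 0 lower, with a median of 0.22, and of 25 midbrain, hindbrain and posterior genes 11 were higher and 1 lower, with a median of 0.21. Gene-start scaling gave 3 higher and 2 lower for the early neural list and 1 higher and 3 lower for the midbrain, hindbrain and posterior list, with medians of 0.06 and 0.05 beside -0.15 for all genes. Linking within 1 kb gave 8 of 21 higher and 1 lower for the early neural list, and 1 higher and 1 lower for the midbrain list. SOX21, a neural progenitor factor, had 22.6 and 25.9 CPM in DATG, 25.0 in KO and 15.5 and 13.9 in WT, a log2 difference of 0.72 ± 0.14 (SE, adjusted p = 0.000132 in edgeR's quasi-likelihood test). HES5 rose by 0.55 and IRX3, a homeobox factor of the posterior neural plate, by 0.49, with 123 and 129 CPM in DATG, 121 in KO and 97.5 and 82.0 in WT.

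The calls of the forebrain list held no direction across scalings. Of 23 genes measured, 6 were higher and 1 lower, ZIC4, with a median of 0.10, beside 0.01 for all genes. Gene-start scaling gave 2 higher and 4 lower and a median of -0.06, beside -0.15 for all genes. Under loess offsets the median was 0.002, beside 0.015 for all genes. The list median thus lay above that of all genes in the main fit and under gene-start scaling, but not under loess offsets. Linking within 1 kb gave 2 higher and 2 lower and a median of -0.02, beside 0.005 for all genes. EMX2, a cortical homeobox factor, had 172 and 168 CPM in DATG, 171 in KO and 136 and 120 in WT over 32 regions (0.41 ± 0.07). PAX6 as a whole gene rose by 0.22 with an adjusted p of 0.0476 in edgeR's quasi-likelihood test, a call lost in 13 alternative settings. Its promoter region had a larger difference but was picked by its day 4 p, so these values are not like for like. SOX1 rose by 0.29 and lost its call under gene-start scaling. FOXD4L1 had no linked region.

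Neuronal genes were divided. Of 22, 6 were higher and 2 lower, DCX and MAP2, both proteins of the neuronal microtubule cytoskeleton. DCX had 12.5 and 11.3 CPM in DATG, 12.5 in KO and 21.0 and 19.8 in WT, a log2 difference of -0.78 ± 0.16 (SE, adjusted p = 0.000236 in edgeR's quasi-likelihood test). In WT the gene had opened by 1.05 on the log2 scale between day 1 and day 5, with 14.5 and 17.9 CPM at day 5, both below the WT day 4 libraries. MAP2 had -0.52 ± 0.09, which became 0.12 where only regions within 1 kb of a gene end were counted. NEUROD1, a neurogenic bHLH factor, had 73.1 and 84.8 CPM in DATG, 81.8 in KO and 59.8 and 56.7 in WT (0.44 ± 0.08). The list's median of 0.11 became -0.04 under gene-start scaling, with 1 higher and 5 lower, beside a median of -0.15 for all genes. Linking within 1 kb gave 1 higher and 3 lower and a median of -0.005, beside 0.005 for all genes.

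Among signalling genes, several of the Nodal pathway fell. Of 19 Nodal and Activin genes 5 were lower and 3 higher, with a median of 0.13. Under gene-start scaling that median became -0.02, beside -0.15 for all genes. The 5 were GDF3, CRIPTO, FOXH1, CER1 and NODAL. FOXH1, the forkhead partner of SMAD2, had 40.5 and 42.0 CPM in DATG, 41.9 in KO and 69.7 and 64.0 in WT, a log2 difference of -0.70 ± 0.09. NODAL, the ligand, had 19.5 and 20.6 CPM in DATG, 19.8 in KO and 29.5 and 28.3 in WT, a log2 difference of -0.53 ± 0.12 (adjusted p = 0.000691 in edgeR's quasi-likelihood test). GSC, a homeobox target of Nodal, went up by 0.73 with 98.7 and 106 CPM in DATG, 95.7 in KO and 66.7 and 57.1 in WT. LEFTY1 and LEFTY2, the secreted inhibitors, had 0.15 and 0.22 and were not called.

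Of 20 BMP genes 7 were higher and 2 lower, ID1 and BMP4. SMAD6, an inhibitory SMAD, had 187 and 188 CPM in DATG, 186 in KO and 138 and 134 in WT (0.46 ± 0.06), and CHRD, the BMP antagonist chordin, rose by 0.62. Of 23 WNT genes 9 were higher and 4 lower. NKD1, a feedback inhibitor, had 60.1 and 60.2 CPM in DATG, 68.7 in KO and 33.9 and 32.1 in WT (0.87 ± 0.10), and SP5, a WNT target, rose by 0.52. The BMP and WNT medians of 0.12 and 0.09 became -0.04 and -0.07 under gene-start scaling, beside -0.15 for all genes. The BMP list then had 2 higher and 5 lower, and the WNT list 3 higher and 8 lower. Under loess offsets the WNT median became -0.02, beside 0.015 for all genes. Of 20 FGF genes 4 were higher and 1 lower, but 0 and 4 under gene-start scaling and 0 and 2 with linking within 1 kb. Of 14 hedgehog genes 4 were higher and 0 lower, but 0 and 2 under gene-start scaling.

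Of 18 Notch genes 7 were higher and 2 lower, NOTCH3 and RBPJ, with a median of 0.15. Gene-start scaling gave 2 higher and 2 lower, with a median of -0.01, beside -0.15 for all genes. NOTCH1 had 50.4 and 58.7 CPM in DATG, 60.5 in KO and 38.7 and 35.5 in WT (0.56 ± 0.10). RBPJ, the DNA-binding effector of Notch, had 1.43 and 0.94 CPM in DATG, 0.74 in KO and 6.10 and 7.14 in WT over 2 linked regions, a log2 difference of -2.49 ± 0.30 (SE, adjusted p = 1.48e-07 in edgeR's quasi-likelihood test). At day 1 RBPJ had 9.79 CPM in DATG and 7.21 and 8.13 in WT.

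Of 18 retinoic acid genes 5 were higher and 0 lower. ALDH1A1, which makes retinoic acid, had 7.22 and 5.23 CPM in DATG day 4, 9.22 in KO and 1.85 and 1.61 in WT over 2 linked regions, a log2 difference of 1.84 ± 0.27 (SE, adjusted p = 3.72e-06 in edgeR's quasi-likelihood test). It opened in WT as well, to 5.10 and 4.26 CPM at day 5, when DATG had 16.0. RXRA, a retinoid receptor, had 152 and 147 CPM in DATG, 152 in KO and 84.2 and 93.7 in WT (0.75 ± 0.07). It was higher in DATG by 0.48 at day 1 too. The list's median was 0.09, and -0.06 under gene-start scaling, beside -0.15 for all genes.

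Markers of other cell types were looked at in the same way. Of 20 primitive streak and mesoderm genes 8 were higher and 1 lower, and the list summed to 1048 and 1073 CPM in DATG, 1034 in KO and 994 and 894 in WT. APLNR, the apelin receptor of early mesoderm, had 18.0 CPM in both DATG libraries, 19.8 in KO and 7.10 and 9.67 in WT, a log2 difference of 1.10 ± 0.17 (SE, adjusted p = 7.38e-06 in edgeR's quasi-likelihood test). At day 5 it had 15.1 CPM in DATG and 13.3 and 16.7 in WT. Of 13 endoderm genes 5 were higher and 2 lower, summing to 797 and 790 CPM in DATG, 782 in KO and 794 and 697 in WT. AFP, the fetal albumin-like protein, fell by 0.91. Of 18 amnion and trophoblast genes 4 were higher and 3 lower, and 0 higher and 3 lower under gene-start scaling. Of 22 neural crest and placode genes 5 were higher and 2 lower, but 1 and 5 under gene-start scaling, 0 and 5 with linking within 1 kb and 3 and 4 under loess offsets. MESP2 and HNF4A had no linked region, and the filter on low counts left no marker at 0 in all libraries. The streak median of 0.15 became -0.01 under gene-start scaling, with 3 higher and 4 lower, beside a median of -0.15 for all genes. The endoderm and amnion medians of 0.01 each changed sign with the scaling. The part of other cell types in the results was not tested.

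Of 17 p53 target genes 2 were higher and 0 lower, with a median of 0.10. Under gene-start scaling that median became -0.06, beside -0.15 for all genes. Of 18 AP-1 and immediate early genes 5 were higher and 1 lower, FOSL1, which fell by 0.49, with a median of 0.09 that became -0.07, with 0 higher, under gene-start scaling. Of 40 ribosomal protein genes 0 were higher and 6 lower, with a median of -0.07. Beyond the lists, the genes with the largest gene-linked gains included KLRF2, a lectin-like receptor, at 1.46, with 39.3 and 41.5 CPM in DATG, 46.8 in KO and 13.6 and 15.8 in WT, and CHI3L1, a chitinase-like protein, at 1.04. KLRF2 was already higher in DATG by 1.28 at day 1. The largest losses after CLDN7 were GMCL2 at -2.21, DPRX, a homeobox gene, at -1.80, LCA5, a ciliary protein, at -1.55 and HRC at -1.45. GMCL2 had 6.69 and 6.30 CPM in DATG, 5.68 in KO and 28.0 and 32.2 in WT, and the day 1 differences of these 4 genes lay between -0.18 and 0.08.

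**Figure D5:**
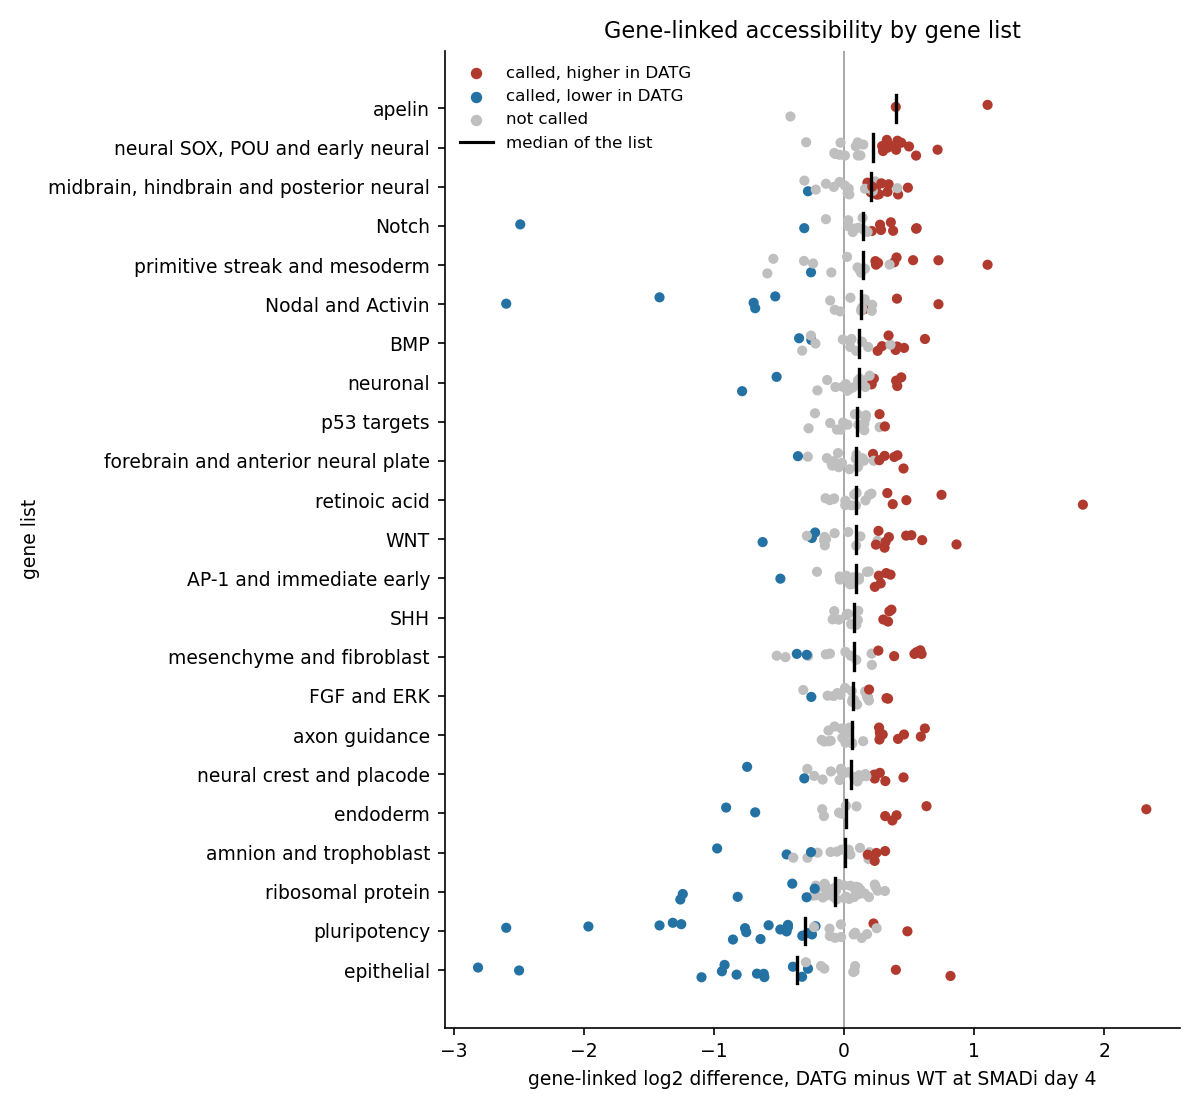
Gene-linked log2 difference, DATG minus WT at SMADi day 4, for each measured gene of 23 lists (1 point a gene, dark where called, grey where not), with the median of each list as a bar. The epithelial and pluripotency medians lie at -0.36 and -0.30 and stay negative under each scaling, while the positive medians of other lists become negative when scaled on gene-start regions, except those of early neural, midbrain and hindbrain, and apelin genes (0.22, 0.21 and 0.40 before that scaling). Under that scaling the median of all genes is -0.15.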

How the data were processed

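ATAC-seq read counts per region were analysed for 15 SMADi and 6 day 0 libraries of DATG, KO and WT H1 cells. The deposited values were raw counts, not normalized, in regions of GRCh38 for which the submitters' processing notes name MACS2. The sources used here do not give the aligner, the duplicate handling or any read shift. The SMADi and day 0 tables have their own regions, 162317 and 100584, and were fitted separately.

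Regions and gene-linked sums were tested with edgeR 4.0.16 in R 4.3.3 (TMM, filterByExpr, robust quasi-likelihood F test, 2-sided, Benjamini-Hochberg over all features), with 1 mean per genotype and day. The fits left 6 residual degrees of freedom in the SMADi table and 3 at day 0. SE is the absolute log2 difference divided by the square root of F. "Higher", "lower", "rose" and "fell" mean an adjusted p under 0.05. Position on the WT course used log2(CPM + 0.5). Genes, starts and sequences came from RefSeq, where starts on chromosome 8 were not used. All 23 gene lists matched by symbol.

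Named regions were the 8 strongest called in each direction at or above the median level and within 50 kb of a protein-coding gene end, and named genes were fixed anchors, up to 4 strongest called members per list and the 6 strongest genes in each direction. Other genes were named after their values were seen. Members, lists and rules were chosen with earlier results of these data known. Alternatives were other scalings and filters, thinning, loess offsets (limma 3.58.1), DESeq2 1.42.0, a replicate block, other linking distances and leaving out libraries. The procedure was run on regions simulated from its own fitted model, with only a small part of them changed. Far more regions were called in the real data, so that run cannot check the scaling. Reads carried no molecular identifiers, so counting error is a lower limit.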

Additional observations from a re-analysis of the deposited data

Results flagged for a closer look

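The DATG minus WT difference at day 4 departed from that at day 1 at 18 of the regions described, by edgeR's quasi-likelihood test of the difference with Benjamini-Hochberg adjustment over all regions. The change is given as the day 4 difference minus the day 1 difference on the log2 scale, with DATG day 1 resting on 1 library. Among gains it was 4.114 at SORCS2 (adjusted p = 0.000287), 5.343 at MEGF10, 4.384 at WSCD1, 5.715 at SAMD12 and 8.568 at SORL1. DATG day 1 had 0 counts at SORL1, so that fitted value is no bound on the change. Among losses it was -6.232 at WWOX, -5.524 at MRGPRX2, -5.543 at ZNF117, -5.582 at ZNF100, -5.857 at KAT8 (adjusted p = 7.49e-13) and -6.038 at GAL.

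Promoters were flagged in the same way. The change was -4.412 at CLDN7 (adjusted p = 2.59e-12), -4.154 at CRB3, -2.147 at CRIPTO and -1.495 at NANOG, where the adjusted p of 0.0147 in edgeR's quasi-likelihood test was lost in 5 alternative settings. Among promoters that gained, it was 1.275 at HES5, 2.232 at PAX6 and 1.345 at PRTG. The difference at SORCS2 also departed from that at day 5, by 2.298 (adjusted p = 0.0274), a call lost in 4 alternative settings. The cause of these changes was not tested.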

How the results depend on the processing

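The day 4 count of 49719 regions ran from 31093 without DATG replicate b and 33120 without DATG replicate a to 48274 without KO day 1 replicate b, and stayed within 1.5 times of itself under all other settings (33808 in DESeq2, 57536 with the 4 day 4 libraries alone). The gene count of 10801 ran from 6599 to 10300 on leaving out libraries and was 3426 where only regions within 1 kb were linked. For day 4 against day 1, 19263 became 10888 after thinning to equal depth, 8620 in DESeq2 and 11447 to 18375 on leaving out libraries. For day 4 against day 5, 699 became 162 after thinning, 288 with the replicate block, 138 in DESeq2, 1100 under gene-start scaling and 84 to 4612 on leaving out libraries. At day 0, 207 became 93 under loess offsets, 62 after thinning, 123 with the replicate block, 13 in DESeq2 and 31 to 278 on leaving out libraries. Regions closing in WT and lower in DATG fell in number to 4583 under loess offsets, against 7774. The cause of these moves was not tested. Leaving out the single DATG library of day 1 or of day 5 gives no value for those days, and gene-start scaling was not run at day 0.

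Of 143 called values among the 154 for named genes and regions, 70 lost their call in at least 1 of 21 settings, most of them small gene-linked gains under gene-start scaling or closer linking. Direction reversed only with linking distance: within 1 kb ID1 came to 0.0656, DMBX1 to -0.01743, MSX2 to -0.01751, MAP2 to 0.1182, EBF1 to -0.004679, WNT8A to 0.04641 and FGFRL1 to -0.2178, and within 10 kb MAP2 came to 0.1133. Gene-start scaling, which sets regions at gene starts level, was chosen after seeing the data.

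Replicate letters did not pair the samples: deviations of same-lettered DATG and WT day 4 libraries correlated at r = -0.03 across regions, where regions are not independent replicates. With the replicate block 47212 regions were called at day 4, and 2 of the named calls were lost, PAX6 and RPS2 as gene-linked values. With 2 libraries a group, depth and spread limit small differences more than large ones.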

Other observations

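Axon guidance receptors and ligands, outside the neural lists above, had 9 of 23 genes higher in DATG at day 4 and 0 lower, with a median log2 difference of 0.06 beside 0.01 for all genes. Gene-start scaling gave 2 higher and 2 lower and a median of -0.09, beside -0.15 for all genes. UNC5C, a netrin receptor, had 68.5 and 72.4 CPM in DATG, 70.2 in KO and 48.3 and 43.4 in WT, a log2 difference of 0.62 ± 0.09 (SE). Of 3 apelin genes 2 were higher, APLNR and its ligand APLN, which had 40.5 and 38.6 CPM in DATG, 36.5 in KO and 29.7 and 30.3 in WT. The APLN call was lost without DATG replicate a, under gene-start scaling and with linking within 1 kb or 10 kb.

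Chromosome 19 had the smallest share of higher regions at day 4, 7.64%, against 15.2% on chromosome 22. Near the ends of its ZNF genes, the KRAB zinc finger clusters among them, 3.36% of 804 regions were higher in DATG and 25.0% lower, with a median log2 difference of -0.14. Other regions of chromosome 19 had 8.19% higher and 18.1% lower, and ZNF gene ends on other chromosomes had 10.3% higher and 17.3% lower. Over 578 windows of 5 Mb, medians ran from -0.61 to 0.37 at day 4. At day 0 they ran from -0.28 to 0.09 over those of the windows with at least 30 day 0 regions, so the ranges cover unlike sets of windows. These counts were made after the data were seen and carry no test.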
